A study of Mus musculus with 8 samples.

Results

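Mouse chromosomes are telocentric: the centromere lies at one tip, and its satellite repeats are missing from the genome assembly. Assembled sequence therefore begins near 3 Mb on each autosome, and the stretch that follows is the part of the chromosome arm nearest the centromere. The centromere-proximal ends described here are all 50-kb bins of the 19 autosomes that begin below 8 Mb (mm10 build) and hold at least 3 windows of the timing profiles. They number 1628 of the 42710 such bins in the data (3.81%), with 11822 windows of a 6-kb grid. Position alone chose them, and no measured score was used.

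Cells copy their DNA in a set order during S phase. Active, gene-rich chromatin usually replicates early, whereas gene-poor chromatin near the nuclear lamina and pericentromeric heterochromatin usually replicate late, and timing changes gradually over the transition zones between them. The DNA-binding factor CTCF halts the loops that cohesin extrudes and so marks many boundaries between chromatin domains.

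The profiles come from Repli-seq of E14Tg2a cells, male mouse embryonic stem cells of a 129/Ola background grown with leukemia inhibitory factor. CTCF carries an auxin-inducible degron in the cells of both groups. The auxin group received indole-3-acetic acid, an auxin, at 500 µM for 2 days, and the control group received none. Cells took up the thymidine analog BrdU for 2 hours, were separated by DNA content into an early and a late S-phase fraction, and the labelled DNA was sequenced, which gave 8 libraries that pair into 4 profiles, 2 per group. The labels name no degron-free cells treated with auxin, so auxin's own effects and those of CTCF loss cannot be told apart. The driver of the auxin receptor and the number of clones are not stated in the labels, and no file measures CTCF protein. Nor do the labels call the replicates separate cultures, and a p-value then reflects only how far these profiles scatter, which may be technical. The timing score is higher where replication is earlier; its log base and the read depth behind it are unknown, and no gene expression was measured. Errors written as ± are SDs over the 2 profiles of a group (n = 2).

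Sequences of 2 promoters that lie in bins past the test's threshold are shown first, because they show how far the 2 differ in base composition. Rab10 encodes a small GTPase of vesicle transport, and its 250 upstream bases (chr12:3309970-3310219, minus strand, RefSeq GRCm38.p6) lie in a bin that replicated earlier with auxin. Akr1c12 encodes an aldo-keto reductase of a family that acts on steroids, and its 250 upstream bases (chr13:4279400-4279649, minus strand) lie in a bin that replicated later. Capitals mark each CG dinucleotide, 34 in the Rab10 promoter and 2 in that of Akr1c12. Among other promoters in later bins past the threshold, that of Akr1c19 held 1 and that of Pfkp 16. Whether base composition goes with the direction of a difference was not tested.
Rab10: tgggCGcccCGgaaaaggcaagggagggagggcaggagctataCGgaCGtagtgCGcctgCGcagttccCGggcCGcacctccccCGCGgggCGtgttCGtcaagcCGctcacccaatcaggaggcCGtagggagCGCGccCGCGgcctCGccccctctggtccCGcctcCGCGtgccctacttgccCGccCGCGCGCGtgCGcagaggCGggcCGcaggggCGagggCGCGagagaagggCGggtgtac
Akr1c12: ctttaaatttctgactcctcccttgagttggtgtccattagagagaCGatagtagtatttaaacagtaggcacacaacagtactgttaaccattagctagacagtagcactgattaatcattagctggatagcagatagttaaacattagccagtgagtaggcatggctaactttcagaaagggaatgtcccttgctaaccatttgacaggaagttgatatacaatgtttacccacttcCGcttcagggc

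The end of chromosome 7 holds the miR-290 to miR-295 cluster, a set of microRNAs abundant in embryonic stem cells. Its 9 microRNA genes lie at chr7:3218626-3220841 within a single bin, and they are shown because the cluster is the best known embryonic stem cell locus of these ends. It was chosen after its values were seen. Of 17 mature sequences listed in RefSeq for the cluster, 5 hold AAGUGC within the seed, bases 2 to 8, which is given in capitals. For miR-292a only the 5p sequence was listed, so the count may be incomplete. The seed AAGUGCU is shared by 3 of them, while miR-290a-3p has AAGUGCC and miR-291b-3p has AAGUGCA.
miR-290a-3p: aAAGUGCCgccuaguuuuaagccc
miR-291a-3p: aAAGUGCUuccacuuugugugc
miR-291b-3p: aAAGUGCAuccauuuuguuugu
miR-294-3p: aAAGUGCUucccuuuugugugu
miR-295-3p: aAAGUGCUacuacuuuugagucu

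The centromere-proximal ends were a late-replicating but very mixed compartment. In control cells their bins averaged -0.38 and -0.36 in the 2 profiles, or -0.37 ± 0.011, against -0.15 over the rest of the autosomes and 0.49 ± 0.019 over the last 5 Mb at the other, distal end. Late bins, with a mean score below -0.5 over the 4 profiles, made up 56.1% of the ends (913 bins), middle bins 12.3% (200) and early bins, above 0.5, 31.6% (515). Over the rest of the autosomes 47.9% were late and 40.4% early, and over the distal ends 35.7% and 53.4%. The proximal ends were thus below both in each of the 4 profiles.

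Not every end contributed equally, because windows are missing in places, and the reason was not tested. Of 1900 possible bins below 8 Mb, 272 were left out, 131 with no window and 141 with 1 or 2. Chromosome 18 kept all 100 bins, whereas chromosome 14 kept only 13, the first of them at 5900001. Bins just inside and just outside the limit were alike in range: the last bin before 8 Mb averaged -0.86 over 16 chromosomes (from -3.43 to 3.20), and the first beyond it -0.98 over 15 (from -3.51 to 2.80).

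Timing varied widely between the ends. Mean control scores of the 19 ends ran from -1.97 ± 0.12 on chromosome 3 to 2.93 ± 0.13 on chromosome 19, with an SD of 1.26 over ends, against 0.385 over the means of the rest of each chromosome, which average over much longer stretches. The distal ends ran as widely, from -2.16 on chromosome 18 to 2.91 on chromosome 11. On average 3 ends lay in the early range (chromosomes 7, 11 and 19), 10 in the late range and 6 between. In all 4 profiles 13 ends were later than the rest of their own chromosome and 5 were earlier, those of chromosomes 7, 11, 12, 14 and 19, while the end of chromosome 16 (-0.38 ± 0.10, against -0.33 for the rest) was above the rest in some profiles and below it in others. Neighbours in the order of ends were often closer than their spread, such as chromosome 9 (-1.33 ± 0.056), chromosome 1 (-1.33 ± 0.012) and chromosome 5 (-1.35 ± 0.067).

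**Figure D1:**
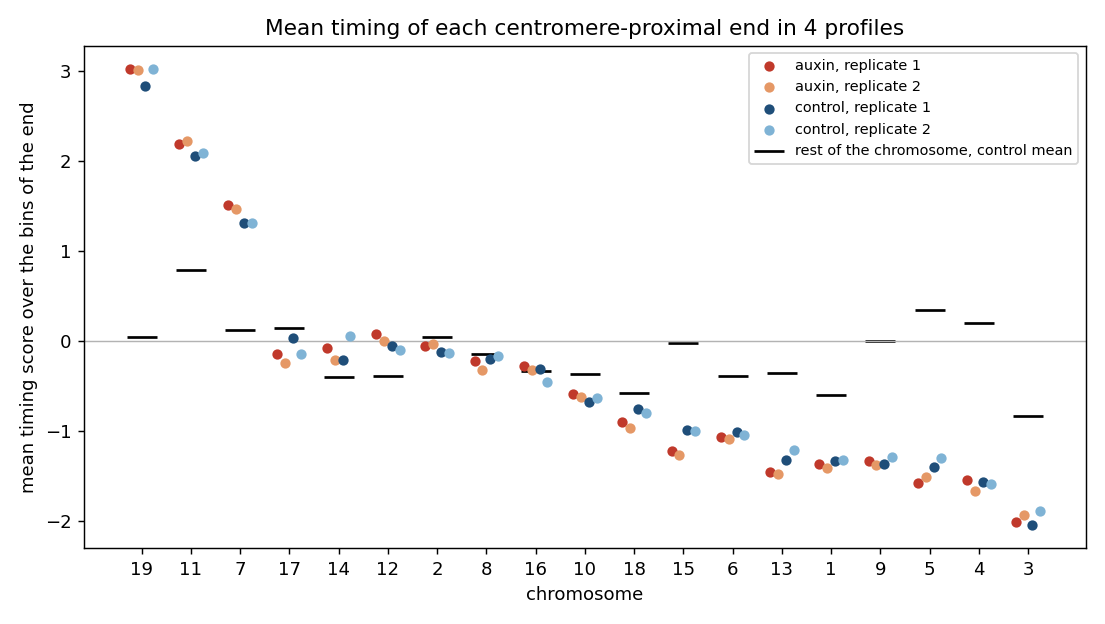
Mean timing score over the bins of each centromere-proximal end (vertical axis, score units; higher is earlier) by chromosome, ordered by the control mean, with a point for each of the 4 profiles and a black bar for the control mean of the rest of that chromosome. The ends of chromosomes 19, 11 and 7 stand above the rest of their chromosomes, and that of chromosome 3 is lowest at about -1.97.

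Gene content largely followed the same order. The end of chromosome 19 held 183 gene starts (36.6 per Mb) and was early in 89 of 96 bins, and the end of chromosome 11, with 16.4 gene starts per Mb, was early in 76 of 98. Chromosome 3 stood at the other extreme with 7 gene starts (1.4 per Mb) and 0 early bins of 76. The order was not exact. Chromosome 7 had 24.4 gene starts per Mb but a control mean of 1.31, below the 2.07 of chromosome 11. Over the 19 ends, gene starts per Mb and the control mean had a Pearson r of 0.898 and a Spearman rho of 0.83, given as a description of ends read from the same profiles. Gene starts were counted over the whole 5 Mb, whether or not the bins were measured. The end of chromosome 14 had 80 gene starts (16 per Mb) but a mean of -0.08 ± 0.19 over only 13 measured bins. Just 9 protein-coding genes overlap those bins, so its place in that order cannot be judged, although it enters both correlations.

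Promoters in these bins showed the matching base composition. The median number of CG dinucleotides in the 250 bases upstream of a start was 11 for 713 promoters in early bins of the ends, 6 for 122 in middle bins and 3 for 263 in late bins. Elsewhere on the autosomes the medians were 9, 4 and 3. One form of the CTCF motif core, CCANNAGNNGGCA on either strand, was found in 12 of 1098 promoters of the ends (1.09%) and in 202 of 28738 promoters elsewhere (0.703%), and in none of the promoters of Rab10, Akr1c12, Akr1c13, Akr1c19, Pitrm1 and Pfkp, which is a statement about these letters in this window only.

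Inside an end, early and late domains alternated, and steep transitions joined them. The steepest change over 500 kb was on chromosome 7, where the control mean went from 3.60 to -2.51 between 4950001 and 5500000. Chromosome 19 dropped from 3.42 to -2.14 between 7450001 and 8000000, chromosome 10 from 3.55 to -1.74 between 4300001 and 4850000, and chromosome 16 from 2.47 to -2.81 between 5150001 and 5700000. A predominantly late end could hold an early island: on chromosome 1, 71 of 98 bins were late, yet the bin at 4900001 reached 2.19 ± 0.095.

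**Figure D2:**
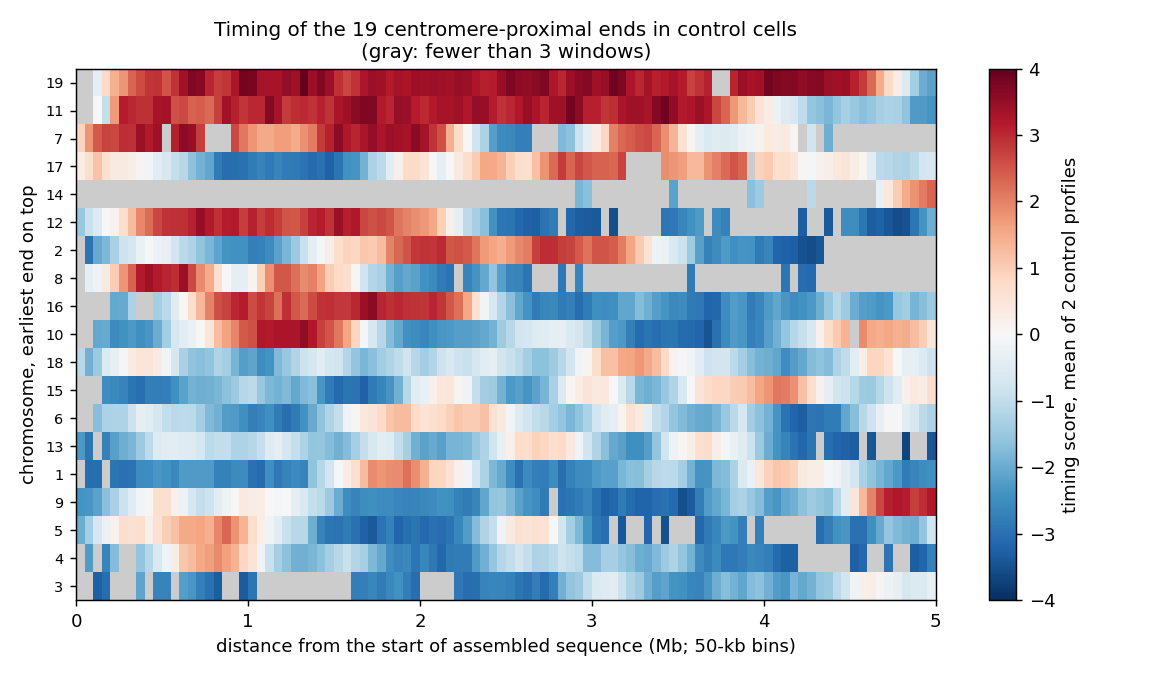
Control timing score (colour, mean of 2 profiles; red is early, blue is late) in 50-kb bins against distance from the start of assembled sequence in Mb, with one row per autosome ordered by the end's mean and gray for bins with fewer than 3 windows. Chromosomes 19 and 11 are early over most of the 5 Mb, chromosome 3 has no early bin, and the other rows alternate between early and late domains.

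Distance from the assembled start was no simple guide to timing. Averaged over chromosomes, the first 0.5 Mb stood at -0.58 ± 0.016 in control cells, the next 0.5 Mb at 0.18 ± 0.042, and the steps from 1 to 2 Mb at -0.01 ± 0.0081 and 0.08 ± 0.0046. Scores were lowest from 4 to 4.5 Mb, at -1.34 ± 0.073. Single chromosomes differed by an SD of 1.72 to 2.32 within each step, which is larger than any difference between steps. At the same distance of 4 to 4.5 Mb from the distal tip, the mean was 0.59 ± 0.060.

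**Figure D3:**
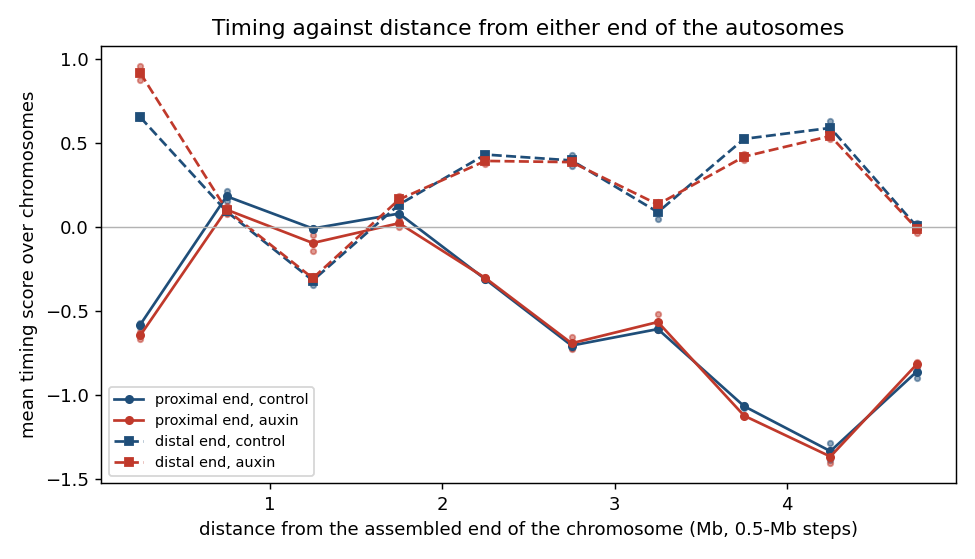
Mean timing score over chromosomes (vertical axis) in 0.5-Mb steps of distance from the assembled end of the chromosome (horizontal axis, Mb), for proximal ends (solid) and distal ends (dashed), in control (blue) and auxin (red) cells; large symbols are group means and small points the single profiles. The proximal curve reaches -1.34 at 4 to 4.5 Mb, where the distal curve is at 0.59, and the group curves of the proximal ends nearly coincide.

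The genes at either extreme give each domain a name. Of 784 protein-coding genes that overlap these bins, 482 held at least 3 windows and had a gene-body score, 290 held 1 or 2 and 12 none. Taking the latest scored gene of each end, the lowest was Pdgfd on chromosome 9 (a platelet-derived growth factor, -3.14 ± 0.20), followed by the zinc finger homeobox gene Zfhx4 on chromosome 3 (-2.87 ± 0.25), the opioid receptor gene Oprk1 on chromosome 1 (-2.86 ± 0.40) and the growth hormone receptor gene Ghr on chromosome 15 (-2.78 ± 0.20). Taking the earliest gene of each end, the highest were Stip1 on chromosome 19 (a co-chaperone, 3.88 ± 0.30), Zmiz2 on chromosome 11 (3.78 ± 0.83), Cnot3 on chromosome 7 (a subunit of the mRNA deadenylase CCR4-NOT, 3.76 ± 0.47) and the mitochondrial chaperone gene Dnaja3 on chromosome 16 (3.62 ± 0.20). SDs of this size leave the order within both sets unresolved.

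Most ends ran from clearly early to clearly late genes. On chromosome 2 the replication initiation gene Mcm10 scored 3.01 ± 0.35, while Celf2, an RNA-binding protein gene of brain and muscle, scored -2.62 ± 0.037. Chromosome 4 went from the kinase gene Lyn (1.53 ± 0.079) to the thymocyte factor gene Tox (-2.70 ± 0.090), and chromosome 16 from Dnaja3 to the neuronal splicing factor gene Rbfox1 (-2.38 ± 0.065). On chromosome 12 the dystrobrevin gene Dtnb stood at 3.14 ± 0.049 and the apolipoprotein gene Apob at -1.98 ± 0.029. No measured gene of chromosome 3 was early, and the earliest, the interleukin gene Il7, was middle at 0.27 ± 0.16.

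A matrix metalloproteinase cluster on chromosome 9 lay along a transition and timed its members by their place in the row. These genes encode enzymes that digest extracellular matrix, and they were listed with their neighbours as a gene list. From the centromere side, Mmp12 scored -1.72 ± 0.089, Mmp1b -1.72 ± 0.20, Mmp3 -0.85 ± 0.21 and Mmp1a -0.50 ± 0.21 in control cells. The next members were early, with Mmp8 at 1.08 ± 0.16, Mmp27 at 1.30 ± 0.14 and Mmp20 at 2.35 ± 0.45. Beyond the cluster the apoptosis inhibitor gene Birc2 reached 3.17 ± 0.021 and Yap1, a Hippo pathway effector gene, 3.14 ± 0.23. The row thus spans most of the range of timing in well under 1 Mb. Mmp1a and Mmp1b are near copies, so reads may be split between them. Mmp3, Mmp1a, Mmp8, Mmp27, Mmp20 and Yap1 lie outside the naming rule and were chosen after their values were seen.

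A receptor gene family crossed the steep zone on chromosome 7 in a similar way. Vomeronasal receptors detect pheromones, and 16 of their genes lie in these bins, none with 3 windows of its own, so only the bins around them can be given. The control score was 2.56 ± 0.32 in the bin of Vmn1r55, 1.41 ± 0.33 in that of Vmn1r56 and 0.73 ± 0.0056 in that of Vmn1r57, and then -2.20 ± 0.41 in that of Vmn1r58 and -2.51 ± 0.29 in that of Vmn1r59. Members of this family thus sat on both sides of the transition.

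The 8 measured genes of leukemia inhibitory factor signalling and stem cell regulation had a median control score of 2.19, beside 1.90 over all measured genes of the ends. The ligand gene Lif on chromosome 11 scored 2.95 ± 0.70, its neighbour Osm, which encodes the related ligand oncostatin M, lay in a bin at 2.81 ± 0.020, and the receptor gene Lifr on chromosome 15 scored 2.01 ± 0.038. Among the other embryonic stem cell regulators listed, the DNA methyltransferase gene Dnmt3a scored 3.06 ± 0.40 and the histone methyltransferase gene Suv39h2 -0.20 ± 0.32, the latest of the 8 measured. The bin of the miR-290 to miR-295 cluster stood at 2.23 and 3.13 in control and 3.32 and 3.04 with auxin, and the groups overlap. In all, 37 microRNA genes with a RefSeq entry lie in these bins, 13 on chromosome 19 and 14 on chromosome 7, and 32 of them are in early bins.

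The opioid, long-gene and developmental lists held both late and early members. The opioid receptor genes Oprk1 and Oprm1 (-2.46 ± 0.17) were both late, whereas Pomc, the precursor gene of an opioid peptide, lay in an early bin of chromosome 12 (2.76 ± 0.17) and Penk, another precursor gene, in a bin at -0.88 ± 0.092. Terminal complement genes on chromosome 15 were C6 at -2.62 ± 0.084, C9 at -1.24 ± 0.25 and C7 at -0.25 ± 0.43. The 16 long genes, of at least 300 kb, had a median of -2.06, from Pdgfd to Camk1d at 1.94 ± 0.078. Of 9 measured developmental transcription factor genes the median was -1.50, from Zfhx4 to Plag1 at 1.48 ± 0.076.

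The 11 measured imprinted genes of these ends had a median of 0.54. On chromosome 6 the paternally expressed neighbours Peg10 and Sgce scored 0.58 ± 0.025 and 0.54 ± 0.17, Pon3 on their distal side 1.13 ± 0.20, and Tfpi2 on the proximal side -2.44 ± 0.063. On chromosome 7 Peg3, Zim1 and Usp29 stood at -0.50 ± 0.024, -0.57 ± 0.19 and -0.33 ± 0.045. These scores do not separate the parental alleles. Peg10, Sgce, Peg3 and Usp29 were named after their values were seen. Zinc finger genes, 16 measured and many of them in arrays on chromosome 7, were mostly early, with a median of 2.35, a maximum at Zfp865 (3.41 ± 0.62) and a minimum at Zfp804b on chromosome 5 (-2.70 ± 0.26); arrays of similar genes can share reads.

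Setting auxin beside control addresses whether the ends replicate at another time after auxin in these CTCF-degron cells. As a compartment they differed little: their mean was -0.38 and -0.41 in the auxin profiles, or -0.40 ± 0.024, a difference of -0.03 from control. Both auxin profiles were below both control profiles, but the gap is small beside the range of the ends. The gap to the rest of the autosomes was -0.22 ± 0.011 in control and -0.25 ± 0.022 with auxin, and the gap to the distal ends -0.86 ± 0.030 and -0.91 ± 0.020. Each of these 3 differences had an exact two-sided permutation p of 0.333, the smallest that 2 profiles against 2 allow.

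Single bins rarely passed the test. By limma over all 42710 bins with Benjamini-Hochberg adjustment, 8 of the 1628 bins (0.491%) passed an adjusted p of 0.05, 5 later and 3 earlier with auxin, against 1.66% of all bins (1.02% later and 0.637% earlier). At an unadjusted p under 0.05 the counts were 289 of 1628 (17.8%) and 9261 of 42710 (21.7%). Groups did not overlap in 799 bins of the ends (49.1%) and in 52.5% of all bins. The group means differed by 1 or more in 9 bins of the ends (0.553%) and in 2.05% of all bins. The share at the ends was therefore at or below the genome-wide share by each of these measures. The median absolute difference between groups was 0.257 in the ends, beside 0.235 between the control replicates and 0.218 between the auxin replicates.

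That count depended on the noise model and on the minimum of windows. With a trended and robust variance 103 bins of the ends passed (6.33%, 64 later and 39 earlier) against 10.8% of all bins (5.66% later and 5.17% earlier), and these held all 8. With bins of at least 6 windows, 51 of 1399 passed (3.65%) against 7.33% of all such bins, 7 of the 8 among them. All 8 kept their direction with any one of the 4 profiles left out. Middle bins made up 3 of the 8, and with the trended and robust variance 14% of middle bins of the ends passed, beside 5.44% of early and 5.15% of late ones. Over all bins these shares were 23.2% of middle, 10.3% of early and 8.26% of late ones.

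The longest run of later bins lay on chromosome 13 (6550001 to 6700000) over Pitrm1 and Pfkp. Pitrm1 encodes a mitochondrial peptidase, and Pfkp the platelet-type phosphofructokinase of glycolysis. The last bin of the run stood at 0.71 and 0.76 in the control profiles and at -0.43 and -0.32 with auxin. The auxin profiles were thus below 0 where the control profiles were above it, without overlap. Its difference was -1.11 (limma, adjusted p of 0.0421), and the 2 bins before it differed by -1.12 and -0.99. Over the gene body Pfkp went from 0.53 ± 0.21 to -0.58 ± 0.014 and Pitrm1 from 0.14 ± 0.036 to -0.79 ± 0.092.

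A second run of later bins on the same end (4200001 to 4300000) covered the aldo-keto reductase genes Akr1c13, Akr1c19 and Akr1c12. The bin at 4250001 stood at -0.910 and -0.997 in control and at -2.09 and -2.50 with auxin. All 4 profiles were late there, and the auxin profiles were later still, by -1.34 (limma, adjusted p of 0.0378). Gene-body means went from -0.46 ± 0.26 to -1.41 ± 0.017 at Akr1c13, from -0.79 ± 0.18 to -2.12 ± 0.35 at Akr1c19 and from -0.94 ± 0.10 to -2.34 ± 0.31 at Akr1c12. Akr1c18 just before the run, outside the naming rule, differed by -0.95. These paralogs are alike in sequence, so reads may be shared among them.

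The 3 earlier bins stood alone on other chromosomes. At Rab10 on chromosome 12 (3300001 to 3350000), which holds the start of the gene and the promoter printed above, the score was 1.19 and 1.37 in control and 2.28 and 2.26 with auxin. This bin was early in every profile and earlier with auxin, by 0.99 (limma, adjusted p of 0.0485). On chromosome 16 (7700001 to 7750000), in a stretch without a protein-coding gene, the score was -2.32 and -2.28 in control and -0.96 and -1.22 with auxin (adjusted p in limma of 0.0410). The first bin of chromosome 7 (3000001 to 3050000), again without a gene, went from 0.90 ± 0.19 to 2.08 ± 0.32 but rests on only 4 windows (limma, adjusted p of 0.0452).

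Wider regions showed more differences. Of 89 1-Mb segments of the ends, 14 passed in limma (15.7%), 11 later and 3 earlier, against 23.5% of all segments. Groups did not overlap in 55 of the 89, against 63.3% of all segments, and with a trended and robust variance 21 passed (23.6%) against 30.6%. Chromosome 13 held 4 of the 14, so that its neighbouring segments went in opposite directions. The segments from 3000001 and 4000001 were later, by -0.43 and -0.65 (limma, adjusted p of 0.0109 and 0.00325). The next, from 5000001, was earlier by 0.41 (from -0.50 ± 0.087 to -0.09 ± 0.097, adjusted p of 0.0159), and the one from 6000001 later by -0.37 (adjusted p of 0.0185). The earlier segment holds the transcription factor gene Klf6, which stood at 0.56 and 0.53 in control and 1.09 and 0.81 with auxin over its body. Stretches on either side of Klf6 were also higher with auxin. They went from -0.30 to 0.33 (5400001 to 5550000) and from -0.79 to -0.11 (5950001 to 6000000), and passed only with the trended and robust variance. The lower scores lay further from the island, with -1.05 over 4100001 to 4350000 and -0.97 over 6400001 to 6750000. Both stretches were picked because they passed with the trended and robust variance. The bins next to the island were thus not the lower ones.

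**Figure D4:**
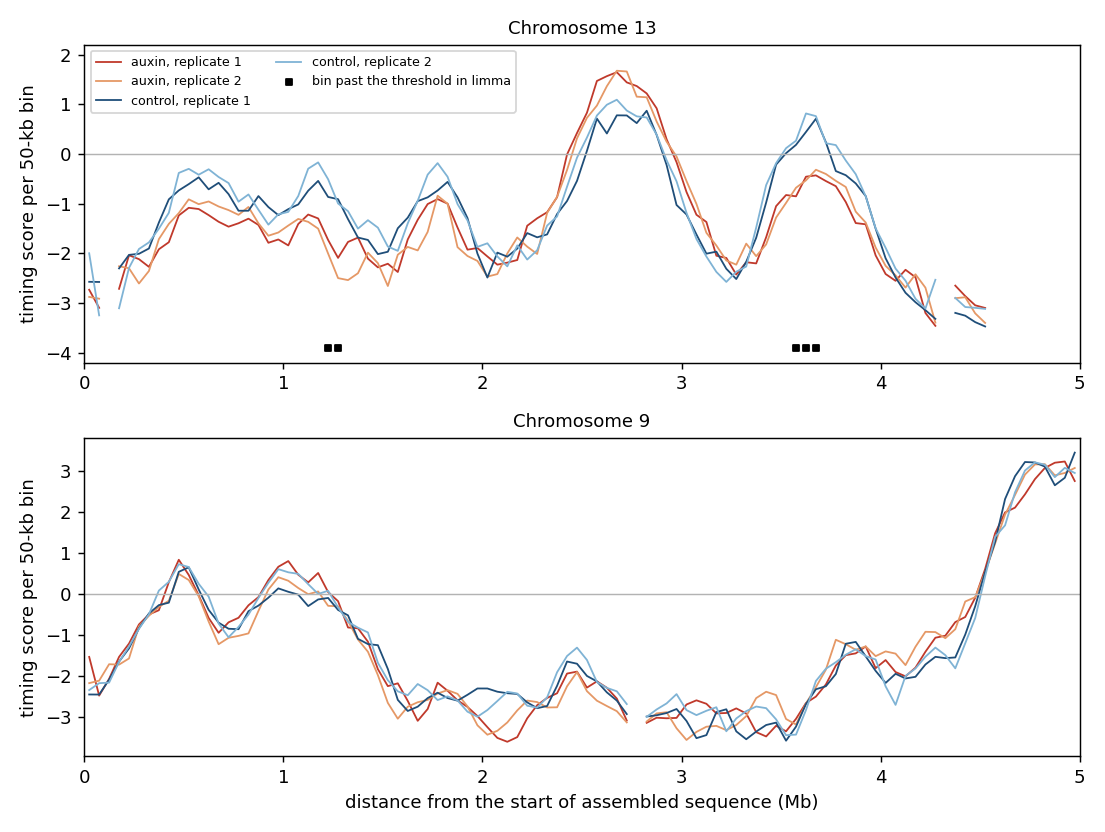
Timing score per 50-kb bin (vertical axis) against distance from the start of assembled sequence (horizontal axis, Mb) for the ends of chromosomes 13 (top) and 9 (bottom) in the 4 profiles, with breaks where bins hold fewer than 3 windows and black squares at the 5 bins of chromosome 13 past an adjusted p of 0.05 in limma. On chromosome 13 the auxin profiles lie below the controls near 1.2 and 3.6 Mb and above them near 2.7 Mb. On chromosome 9 all 4 profiles climb from late to early through the metalloproteinase cluster, with auxin above control by 0.82 over Mmp12, Mmp1b and Mmp3. The 2 bins of that stretch were picked because they passed with the trended and robust variance, and they did not pass in limma (adjusted p of 0.0599 and 0.109).

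The other 10 segments were spread over 9 chromosomes. On chromosome 8 the segment from 4000001 went from 0.61 ± 0.014 to 0.22 ± 0.016, a difference of -0.40 (limma, adjusted p of 0.0124); it holds Evi5l, whose body scored 2.57 ± 0.17 and 1.65 ± 0.039. On chromosome 15 the segment from 5000001, with the caspase recruitment gene Card6 and C7, was later by -0.41, and the one from 3000001, with Ghr, by -0.35 (adjusted p in limma of 0.0129 and 0.0234). Segments with the cell cycle kinase gene Cdk6 on chromosome 5 (from 3000001), the caspase genes Casp1, Casp4 and Casp12 on chromosome 9 (from 5000001) and Zeb1, a regulator of epithelial identity, on chromosome 18 (from 5000001) were later by -0.33, -0.38 and -0.40. Not all genes named here shared the difference of their segment. Over the gene body Cdk6 differed by -0.59, but Ghr by -0.11 and C7 by -0.27, the last 2 with overlapping groups. The bin of Casp12 differed by -0.52 and that of Casp1 by -0.02. The homeobox genes Dlx5 and Dlx6 lie in the later segment of chromosome 6 (from 6000001, -0.34), and their shared bin stood at -0.63 and -0.69 in control and -1.71 and -1.22 with auxin. Earlier segments were those from 7000001 on chromosomes 11 and 16, by 0.34 and 0.32. Later by -0.33 was also the segment from 7000001 on chromosome 1. Without auxin replicate 1 the count was 1 (3.29% of all segments passed) and without auxin replicate 2 it was 0 (4.54%). It was 20 without control replicate 1 (28.6% of all segments) and 20 without control replicate 2 (31.6%).

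**Figure D5:**
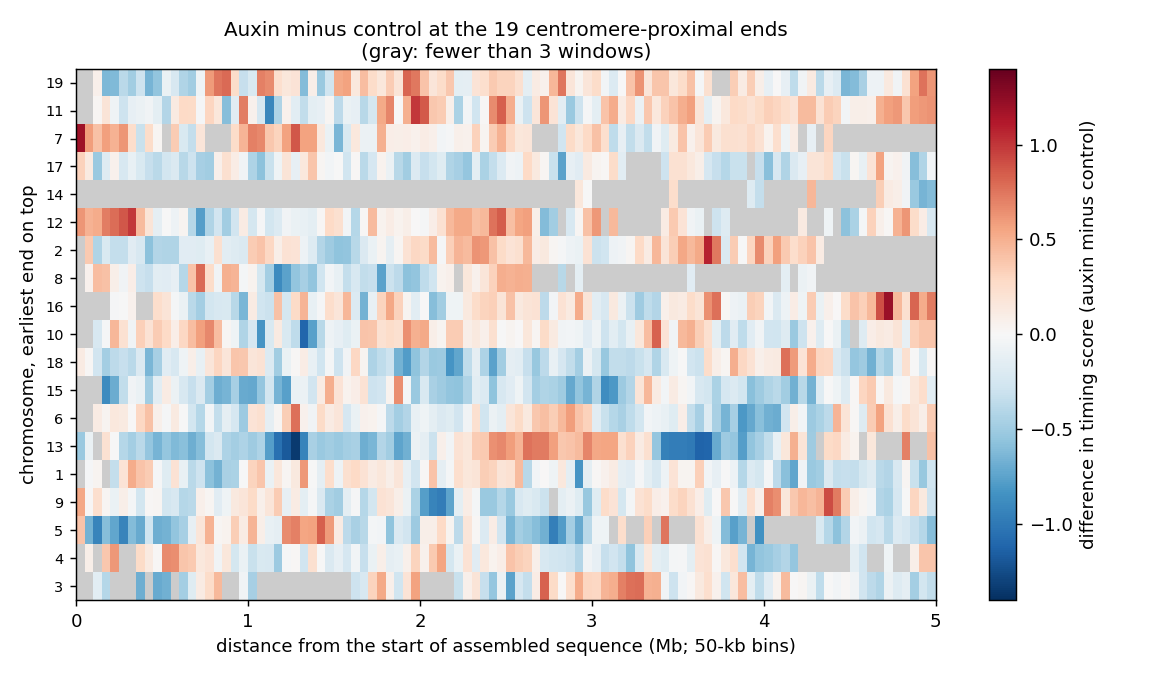
Difference in timing score (colour, auxin minus control; red is earlier and blue later with auxin) in 50-kb bins against distance from the start of assembled sequence in Mb, with one row per autosome in the order of the control map and gray for bins with fewer than 3 windows. Most rows alternate in pale colours, and chromosome 13 shows 2 dark blue blocks, over the Akr1c genes and over Pitrm1 and Pfkp, with a red block between them.

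Whole ends differed little between groups. Averaged over 5 Mb and fitted with all other 5-Mb tiles, a width chosen after seeing the data, 3 of 19 ends passed in limma (15.8%), all later, against 25.7% of all tiles. Chromosome 15 went from -0.993 and -0.997 in control to -1.22 and -1.27 with auxin, a difference of -0.25 (limma, adjusted p of 0.0180). Chromosome 13 (from -1.26 ± 0.081 to -1.46 ± 0.017, adjusted p of 0.0441 in limma) and chromosome 5 (from -1.35 ± 0.067 to -1.54 ± 0.042, adjusted p of 0.0454) followed. Groups did not overlap in 12 ends, 7 lower and 5 higher with auxin, which is 63.2% beside 66.6% of all tiles. The early ends of chromosomes 7 and 11 stood 0.18 and 0.14 higher with auxin without passing (adjusted p in limma of 0.0503 and 0.104). Without auxin replicate 1 or 2, 0 ends passed (7.49% and 7.10% of all tiles). Without control replicate 1 or 2, 5 passed (43.2% and 36.7%), and 1 did with each profile centred on its median (20.9%).

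No gene of the ends passed on its own. By limma over 12979 genes, 0 of 482 passed an adjusted p of 0.05, against 0% of all genes, with a smallest adjusted p of 0.0764; 83 (17.2%) had an unadjusted p under 0.05, against 2845 of all genes (21.9%). With a trended and robust variance 35 passed, 26 later and 9 earlier (7.26%), against 10.7% of all genes. The median difference was -0.07 over the genes of the ends and -0.02 over all genes.

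Beside the genes of chromosome 13, the largest later differences lay at Evi5l (-0.92), Nlrc3 (-0.87), Akap12 (-0.84), Ccdc157 (-0.83), AW549877 (-0.81) and Ppl (-0.76). Nlrc3, a gene of a regulator of innate immunity on chromosome 16, stood at 3.52 and 3.11 in control and 2.33 and 2.57 with auxin. The desmosome gene Ppl stood at 3.70 and 2.57 against 2.39 and 2.36. Its groups were apart, but mainly through control replicate 1, without which the difference was -0.20. The scaffold gene Akap12 and Ccdc157 leaned on the same profile, with -0.39 and -0.33 without it.

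The largest differences toward earlier replication lay at Mmp1b (0.93), Ap1b1 (0.92), Clec4g (0.90, or 0.47 without auxin replicate 1), Rab10 (0.89), Peli3 (0.88), Chka (0.79), Tmem68 (0.74) and Lair1 (0.73). Mmp1b stood at -1.57 and -1.86 in control and -0.67 and -0.91 with auxin, and its neighbour Mmp12 at -1.66 and -1.78 against -0.78 and -1.10. Both were late in all 4 profiles, and the early members Mmp8 and Mmp27 differed by -0.01 and 0.01. Ap1b1, an adaptor subunit gene of clathrin coats on chromosome 11, stood at 3.07 and 3.09 against 3.82 and 4.18. The choline kinase gene Chka stood at 2.33 and 3.37 in control and 3.57 and 3.72 with auxin, and without control replicate 2 or 1 the difference was 1.31 or 0.27.

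The gene lists showed no call either. In limma 0 members of the 10 lists passed, beside 0% of all genes, so this 0 says nothing particular about the lists. The vomeronasal list had no measured gene and was not tested. At an unadjusted p under 0.05 in limma the counts were 4 of 13 for caspases, metalloproteinases and apoptosis inhibitors, a list of chromosome 9 genes except Card6 on chromosome 15. They were 1 of 8 for embryonic stem cell regulators, 1 of 9 for developmental factors, 1 of 11 for imprinted genes and 1 of 7 for chromatin and gene regulators. They were 1 of 16 for zinc finger genes, 1 of 16 for long genes and 0 of 3 for both opioid and neuropeptide genes and terminal complement, beside 21.9% of all genes. With the trended and robust variance the calls were 1 later and 2 earlier among caspases, metalloproteinases and apoptosis inhibitors and 1 later among chromatin and gene regulators, beside 10.7% of all genes in either direction. Median differences ran from -0.27 for terminal complement and -0.18 for zinc finger genes to 0.14 for opioid and neuropeptide genes. Lifr, the receptor gene, had the largest difference among stem cell regulators, from 1.99 and 2.04 in control to 1.49 and 1.38 with auxin (limma, adjusted p of 0.138). Cdk6 differed by -0.59, the nuclear receptor gene Hnf4g by -0.58 and Tfpi2 by -0.57, without passing.

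The authors' deposited tables name 85 regions that changed by their own test, and 0 of them begin below 8 Mb on an autosome. The ends hold 3.81% of all bins. Those lists were made by a rule unlike the one used here, so their counts cannot be compared with those above. In the authors' deposited table of early-to-late regions the nearest is on chromosome 12 (12090000 to 12228000), with an absolute difference of 1.48. In their deposited table of late-to-early regions the nearest is on chromosome 16 (9414000 to 9546000), with 1.20.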

How the data were processed

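Repli-seq of 8 libraries gave 4 timing profiles. The mm10 build and the tools Bowtie2, SAMtools and bedtools are named in the submitters' processing notes, with no version, role, smoothing or formula of the score. The authors deposited timing scores per 6-kb window, quantile normalized per the file headers' names, so every profile has the same distribution and a genome-wide shift cannot be seen. The q-values in the authors' deposited region lists come from a test not given here and were not used. Read depth is unknown.

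Windows were averaged in 50-kb bins (3 or more windows), 1-Mb segments (30 or more), 5-Mb tiles (10 or more bins) and gene bodies (RefSeq, GRCm38.p6; windows that overlap the gene). The groups were compared by limma 3.58.1 (R 4.3.3; lmFit, eBayes, treatment only, 2 residual degrees of freedom, Benjamini-Hochberg over all units). Fits were tested on simulated data. Alternatives were a trended and robust variance, a replicate block, median centring, other minimums and limits, and each profile left out. Same-numbered profiles were not taken as pairs (correlation of their differences 0.032 over these bins).

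The ends and the gene lists were chosen with earlier results of these data known. Named genes are those over runs of 2 or more called bins, the 8 with the largest difference in each direction at least 1 Mb apart, the earliest and latest of each end, and examples of each list; others are marked.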

Additional observations from a re-analysis of the deposited data

How the results depend on the processing

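The 3 group differences in means and gaps kept their sign under every alternative run, from -0.01 to -0.10 in all. Counts of bins moved more. Later and earlier bins numbered 5 and 3 as reported, 64 and 39 with a trended and robust variance, 31 and 20 with bins of at least 6 windows, 1 and 1 with the median of the windows, 2 and 2 with the limit at 5.5 Mb, and 0 and 0 with no minimum of windows in the fit. Over all bins, 1.02% were later and 0.637% earlier as reported. These shares were 5.66% and 5.17% with the trended and robust variance and 3.95% and 3.38% with at least 6 windows. They were 0.356% and 0.162% with the median and 0% and 0.0021% with no minimum. A fit without 1 profile leaves a single profile in a group, so it cannot show whether the bin calls depend on the profile left out. With the replicate block, 23 later and 15 earlier bins passed, beside 3.02% and 2.50% of all bins; since the numbers are not known to pair the profiles, this is given here only. The block called 17 segments (27.8% of all), 0 genes and 3 ends (30.5% of all tiles). Segments numbered 0 to 20 with each profile left out. Genes numbered 35 with the trended and robust variance (10.7% of all genes) and 0 in every other fit with all 4 profiles. Ends numbered 6 with that variance (33.6% of all tiles) and 1 with profiles centred on their medians (20.9%). No single bin, segment, end or named gene tested under these settings reversed its sign. Read depth is unknown, bins with fewer windows are less certain, and whether neighbouring windows share reads is not stated in the labels.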

Other observations

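The centromere-proximal end of chromosome X, outside the autosomal ends described above, held 44 bins below 8 Mb. It averaged -0.53 and -0.51 in the control profiles and -0.20 and -0.10 with auxin, a difference of 0.37. In limma 2 of these 44 bins passed, beside 1.66% of all bins. The 141 bins of the autosomal ends with only 1 or 2 windows, which were left out, averaged -2.40 ± 0.15 in control and -2.42 ± 0.052 with auxin.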
